A study of Mus musculus with 12 samples.

Results

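The 32 genes described here are the glucose and lactate transporters, the enzymes of glycolysis, the genes that set its flux, and genes of oxygen sensing and of the transcriptional response to low oxygen. They were chosen by name: 3 transporters, 14 glycolytic enzymes, 3 flux control genes, 3 oxygen sensing genes and 9 further hypoxia response genes. All 32 had a probe that passed the filter on dim probes, among 13882 named genes and 25738 features that passed it. For 31 of the 32 the probe was well above background on all 12 arrays, and for Vegfa on 10.

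Expression was measured in CD8+ T cells of female C57BL/6 mice on 12 Agilent 1-colour arrays. Total CD8+ T cells came from the peripheral lymph nodes (PLN) or the mesenteric lymph nodes (MLN, those of the gut) of WT, AID KO and uMT mice, with 2 WT arrays, 1 AID KO array and 1 uMT array for each site. AID KO is the label of a knockout line, and uMT mice lack mature B cells. Both are germline changes that the sorted T cells would carry too, and the labels give no age. A further 4 arrays hold naive (CD44low) CD8+ T cells of PLN, sorted as Sca1p and Sca1m, here read as positive and negative for Sca-1, in AID KO and in uMT, with no WT array. The design text states that no replicates were made, and the labels do not say which samples are separate animals. P-values therefore compare each difference with a spread that comes from no replicates. It is how far the arrays depart from additive terms for genotype, site and slide, and for Sca-1 in naive cells. All comparisons share this spread, so those of naive cells rest in part on total cells.

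Levels below are log2 intensities above the 75th percentile of the same array. AID KO below stands for the arrays labelled so, since no check of that deletion is given. Ly6a, the gene of Sca-1, was at 3.91 and 3.42 in Sca1p against 0.07 and -0.07 in Sca1m. All 12 CD8 T cell identity genes with a kept probe, Cd8a, Cd8b1 and Cd3e among them, were well above background on all 12 arrays. Of 17 B cell markers 8 had a kept probe, and 5 of these were well above background on all 12 arrays, with Cd79b of the B cell receptor at 1.96 to 2.76, while Ms4a1 did not pass the filter. The share of spots well above background was 50.1% to 56.8%. All 4 naive arrays share slide 3 and no total array lies there, so cell type and slide cannot be told apart and naive cells were not compared with total cells.

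Glycolysis splits glucose into pyruvate, which Ldha turns into lactate when the pathway runs faster than the mitochondria take pyruvate up. Resting CD8+ T cells rely mainly on mitochondria, and activation raises glucose uptake and glycolysis. The prolyl hydroxylases encoded by Egln1 and Egln3 mark the transcription factor Hif1a for destruction when oxygen is present. In low oxygen, and in T cells also after receptor or cytokine signals, Hif1a persists and binds short sequences near its targets, which include most glycolytic enzymes and the other response genes here.

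In total cells the 14 enzymes were the steadiest group of members by median range. The range of an enzyme's level over the 8 arrays of total cells had a median of 0.40 on the log2 scale, against 0.95 for the 9 hypoxia response genes and 0.76 over all features tested. Over the 4 naive arrays the same medians were 0.22, 0.43 and 0.39. There the flux control genes were at 0.21, the transporters at 0.25 and the oxygen sensing genes at 0.40. Among the enzymes, the widest range over total cells was 1.06 and the narrowest 0.16. Over the hypoxia response genes these ranges ran from 0.24 to 2.49, the widest being that of the dim Vegfa. The ranges are of the brightest probe of each gene, and the groups were not matched for brightness. The enzymes did differ between slides: their summed linear level was 466 to 493 times the 75th percentile on the 4 total arrays of slide 1 and 533 to 573 times on the 4 of slide 2. Each slide holds 1 AID KO array, 1 uMT array and both WT sites, so the differences below are taken within a slide or with slide as a term. The map of all members by array shows the pattern.

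**Figure D1:**
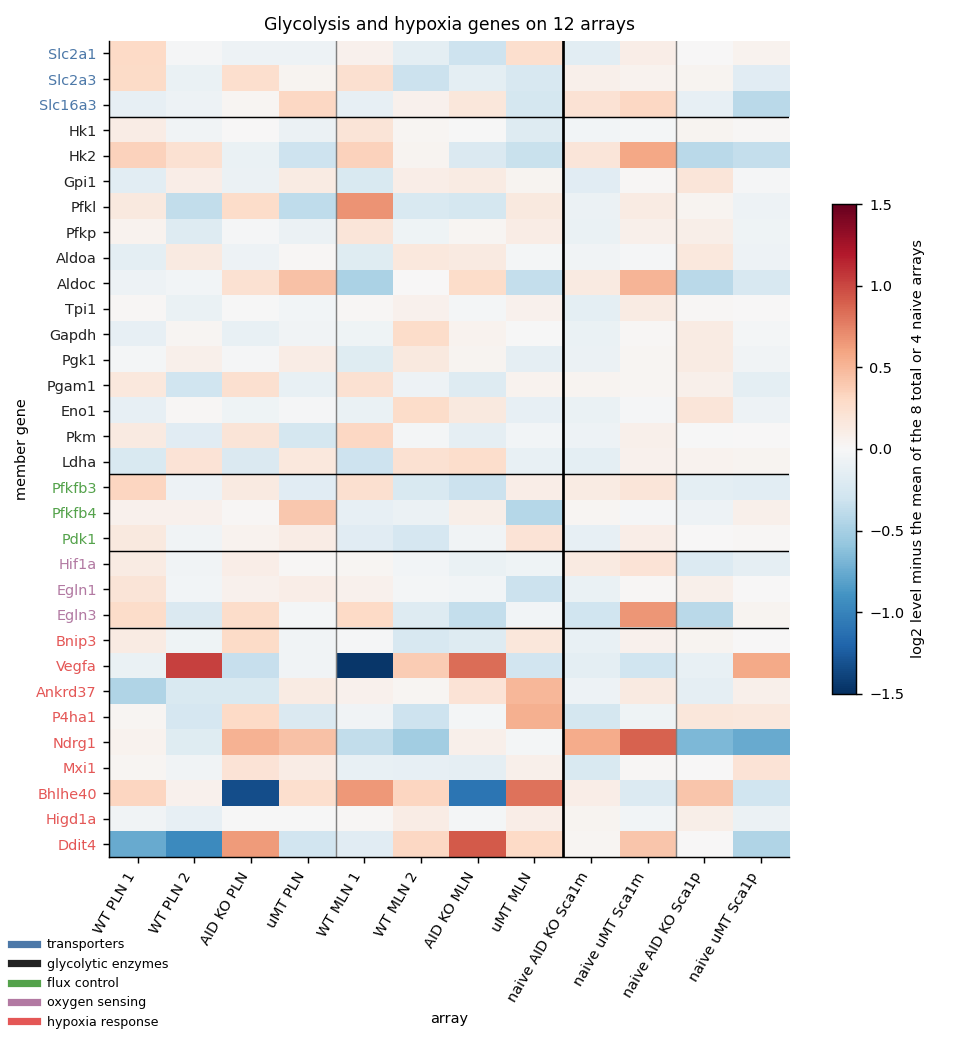
Levels of the 32 members (rows, coloured by role) on the 12 arrays (columns), as the log2 level minus the mean of the 8 total arrays or, right of the thick line, of the 4 naive arrays. Most enzyme rows are pale, with Hk2, Aldoc and Pfkl among the less even ones, while Bhlhe40 is low on both AID KO total arrays (-3.98 and -3.75) and Ndrg1 is low on both naive Sca1p arrays (0.49 and 0.41).

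Promoter windows show what the members share in sequence. RefSeq windows of GRCm38.p6 were at hand for 29 of the 32 members, as 42 windows since some genes have several starts. Some windows of the same gene overlap. No window was at hand for Bhlhe40, Ndrg1 and Slc2a3. The 250 bases before each start were searched on both strands for ACGTG and GCGTG, the usual forms of the core of the hypoxia response element, and overlapping matches were each counted. A match was found in 34 of 42 member windows (81.0%) and in 12679 of all 32851 windows (38.6%). ACGTG was in 50% of member windows against 16.6% of all windows, and GCGTG in 52.4% against 28.2%. Of the 29 members, 27 had a match in at least 1 window, and both members without one were enzymes. The same share per gene was not taken over all genes, and a gene with several windows has more chances of a match. Member windows were not matched to all windows in base content. Matches of 5 bases are a description and do not show that Hif1a binds. The windows of Hk2, Aldoc, Ankrd37 and Ddit4 are printed because these genes gave some of the largest differences among the members below. Each runs 5′ to 3′ on the gene's strand and ends at the base before the start of the first transcript listed, and capitals mark the matches.
Hk2, chr6:82774455-82774704, minus strand: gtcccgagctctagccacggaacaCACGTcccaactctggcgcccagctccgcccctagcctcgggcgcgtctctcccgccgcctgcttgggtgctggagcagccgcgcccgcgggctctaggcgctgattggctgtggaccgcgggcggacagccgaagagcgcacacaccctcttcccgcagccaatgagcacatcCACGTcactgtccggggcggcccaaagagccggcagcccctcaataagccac
Aldoc, chr11:78322823-78323072, plus strand: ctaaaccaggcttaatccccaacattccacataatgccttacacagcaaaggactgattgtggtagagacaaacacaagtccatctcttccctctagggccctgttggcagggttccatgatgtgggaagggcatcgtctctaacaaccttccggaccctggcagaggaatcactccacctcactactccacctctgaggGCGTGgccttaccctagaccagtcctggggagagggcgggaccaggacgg
Ankrd37, chr8:45999851-46000100, minus strand: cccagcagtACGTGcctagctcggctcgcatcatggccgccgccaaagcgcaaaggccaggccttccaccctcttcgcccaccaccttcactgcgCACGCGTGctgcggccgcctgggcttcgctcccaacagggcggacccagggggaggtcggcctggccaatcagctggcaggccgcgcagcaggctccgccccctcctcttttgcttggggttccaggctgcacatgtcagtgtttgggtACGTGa
Ddit4, chr10:59951771-59952020, minus strand: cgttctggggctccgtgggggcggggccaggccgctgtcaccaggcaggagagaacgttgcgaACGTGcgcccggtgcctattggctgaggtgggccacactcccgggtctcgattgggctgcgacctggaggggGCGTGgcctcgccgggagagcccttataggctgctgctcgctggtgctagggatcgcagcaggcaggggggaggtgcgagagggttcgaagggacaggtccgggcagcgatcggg
In Hk2 both matches are ACGTG on the other strand, 226 and 52 bases before the start, and in Aldoc the single GCGTG lies 50 bases before it. In Ankrd37 an ACGTG lies 241 and another 6 bases before the start, with 2 overlapping GCGTG matches of opposite strand between them. In Ddit4 an ACGTG lies 187 bases and a GCGTG 115 bases before the start.

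The first comparison asks how total CD8+ T cells of the mice labelled AID KO differ from WT. Bhlhe40, a transcriptional repressor induced by hypoxia and by T cell activation, fell in AID KO by 1.55 ± 0.11 on the log2 scale (standard error of the fit, 2 AID KO and 4 WT arrays). No other member passed the threshold of an adjusted p of 0.05, so 1 of 32 was called, against 0.878% of all features tested (0.657% lower). The 14 enzymes as a group lay near 0, with a median difference of 0.0086 against 0.0098 over all features.

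Bhlhe40 was at -2.32 and -2.59 on the WT PLN arrays, -1.997 and -2.33 on the WT MLN arrays, and -3.98 and -3.75 in AID KO PLN and MLN. Both AID KO arrays thus lay below all 4 WT arrays. The difference, 2.94-fold lower, had an adjusted p of 0.0084 with limma over all features, and within the slides it was -1.66 in PLN and -1.42 in MLN. The call was lost when each AID KO array was blocked with its WT array (adjusted p = 0.087) and when AID KO PLN (0.25), AID KO MLN (0.14) or either WT PLN array (0.062 and 0.053 for replicates 1 and 2) was left out, with a difference between -1.67 and -1.44 each time. With another background correction, normexp, the size was -0.84 and the call held (adjusted p = 0.0073).

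Other hypoxia response genes had large differences that did not pass. Ddit4, which restrains the growth kinase mTORC1 and is induced by hypoxia and glucocorticoids, was at 4.02 and 3.82 in WT PLN, 4.61 and 5.09 in WT MLN, and 5.42 and 5.70 in AID KO PLN and MLN. Both AID KO arrays lay above all WT arrays, by 1.18 ± 0.25 in the fit (adjusted p = 0.11, pairs 1.40 and 0.61), and by 0.78 without AID KO PLN. It passed under 2 alternatives, with normexp (adjusted p = 0.027) and over features well above background on all 12 arrays (0.048); its adjusted p over the alternatives ran from 0.027 to 0.40. Ndrg1, a hypoxia-induced gene also linked to T cell unresponsiveness, was at 1.39 and 1.16 in WT PLN, 0.97 and 0.81 in WT MLN, and 1.85 and 1.42 in AID KO, 0.55 ± 0.12 higher (adjusted p = 0.11). Again neither AID KO array fell within the WT range. P4ha1, a collagen prolyl hydroxylase, and Ankrd37, an ankyrin repeat protein induced by Hif1a, differed by 0.28 and 0.13. In all, 5 of the 9 hypoxia response genes were higher in both pairs, against 31.3% of features higher in every pair.

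AID KO and WT arrays did not overlap in 5 of 32 members, against 17.6% of all features, and among these Hk2 and Aldoc were the enzymes. Hk2, the inducible hexokinase that traps glucose as its phosphate, was at -1.85 and -1.97 in WT PLN, -1.84 and -2.15 in WT MLN, and -2.29 and -2.41 in AID KO, a difference of -0.40 ± 0.11 (adjusted p = 0.19). Aldoc, the minor aldolase, was at -1.86, -1.83, -2.27 and -1.78 on the WT arrays in the same order, and at -1.56 and -1.51 in AID KO, 0.40 ± 0.13 higher (adjusted p = 0.26). The other 12 enzymes differed by -0.068 (Hk1) to 0.067 (Gpi1), with Ldha at 0.046, Gapdh at -0.057 and Pkm at -0.032. These values are of the brightest probe of each gene. Other kept probes of these 12 ran from -0.48 (Gapdh) to 0.064 (Gpi1), with Pkm at -0.22. For transporters, the glucose carrier Slc2a1 differed by -0.25 (adjusted p = 0.36), Slc2a3 by 0.025 and the lactate exporter Slc16a3 by 0.16. The kinase and bisphosphatase gene Pfkfb3, which sets the activator of phosphofructokinase, differed by -0.16 and Pfkfb4 by 0.072. Pdk1, which restrains the use of pyruvate inside mitochondria, differed by 0.087. Oxygen sensing genes stood within 0.084 of WT: Hif1a at -0.017, Egln1 at -0.034 and Egln3 at -0.084.

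The plot of 6 members on each array shows these values.

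**Figure D2:**
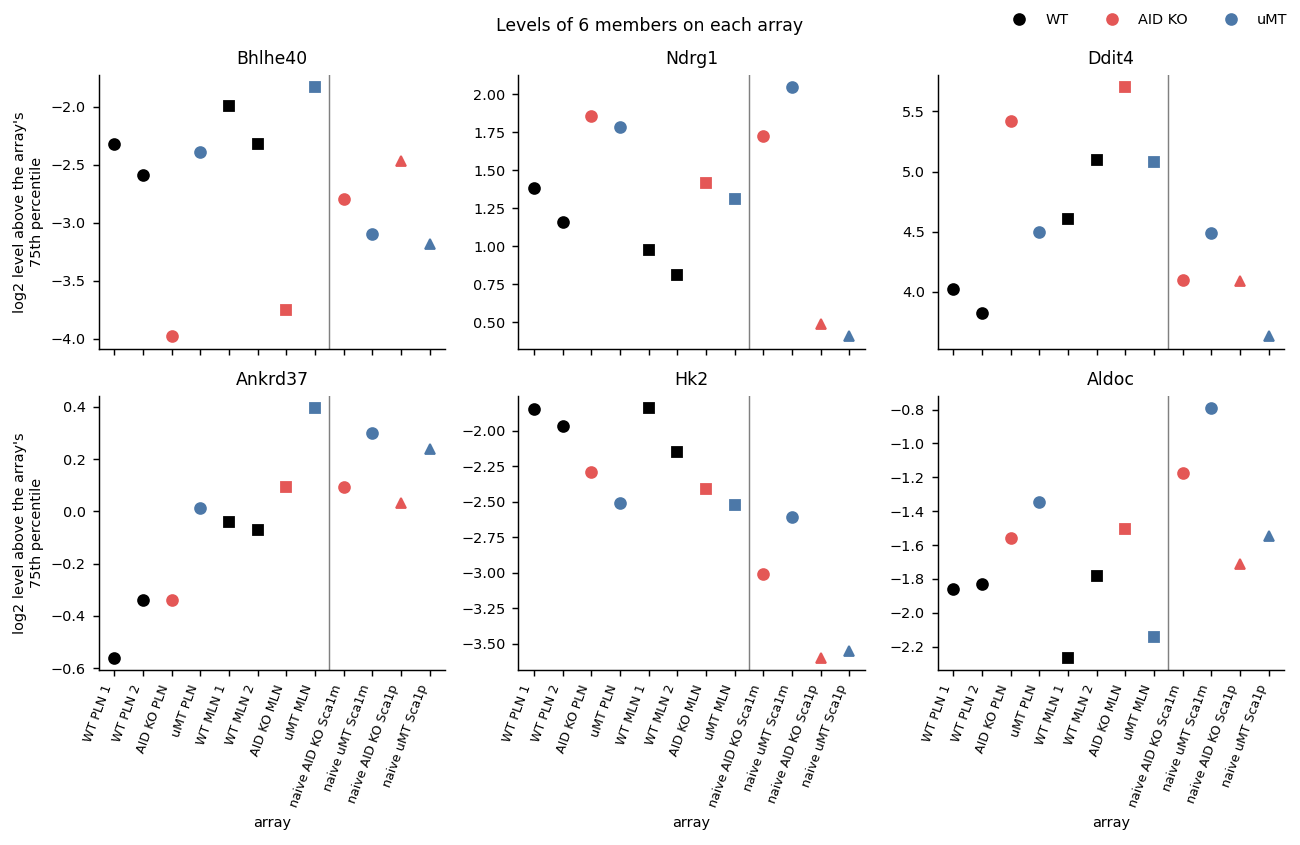
Log2 level above the array's 75th percentile of Bhlhe40, Ndrg1, Ddit4, Ankrd37, Hk2 and Aldoc on each array, 1 point an array (circles total PLN and naive Sca1m, squares MLN, triangles naive Sca1p; black WT, red AID KO, blue uMT; naive arrays right of the line). Bhlhe40 is lowest on the AID KO total arrays (-3.98 and -3.75), Hk2 is lower on the 4 knockout than on the 4 WT arrays of total cells, and Ndrg1 is at 1.73 and 2.05 in Sca1m against 0.49 and 0.41 in Sca1p.

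Genes of the immediate early and stress response also differed between these arrays. Of 22 on a list, 9 were called lower in AID KO (0 with matched pair blocks, without AID KO PLN or without AID KO MLN, and 1 or 2 without any single WT array), with a median of -0.71, and their summed linear level was 369 and 426 times the 75th percentile in AID KO against 607 to 704 in WT. The part of that response in the values of Bhlhe40 and Ddit4 was not tested. B cell markers with a kept probe, 8 of 17, summed to 7.77 and 7.96 in AID KO and 5.03 to 6.18 in WT, with 0 called. Cd79b, at the levels given above, makes up a large part of this sum. On the uMT arrays, of mice that lack mature B cells, the sum was 5.66 and 6.74, not below WT. Here and below it is therefore not read as an amount of B cells. NK cell markers, 8 of 9 kept, summed to 49.1 and 52.4 in AID KO and 31.7 to 43.2 in WT, with 1 called higher. The part of both in the result was not tested. In sorted bulk cells, fewer cells of a type and less RNA per cell cannot be told apart.

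Wider lists of the same pathways gave few calls. Of 39 other genes of sugar metabolism, 1 was called: Gpd1, the glycerol phosphate dehydrogenase that draws off a glycolytic intermediate, fell by 0.71 ± 0.09 (adjusted p = 0.037), from -3.37 to -3.07 on the WT arrays to -4.14 and -3.69. That call was lost with matched pair blocks (adjusted p = 0.21), with normexp (0.22, at -0.37), with quantile scaling (0.054), with no filter (0.14), with no slide term (0.19) and without any single array of the 12 (0.063 to 0.51). Gpd1 also lost its call with total and naive cells fitted apart (adjusted p = 0.063). Of 32 other hypoxia and oxygen sensing genes, 1 was called: Nfil3, a transcription factor of lymphocytes, fell by 1.90 ± 0.16 (adjusted p = 0.015), from 1.24 to 1.46 on the WT arrays to -0.36 and -0.77 in AID KO. The Nfil3 call was lost with matched pair blocks (adjusted p = 0.12) and without AID KO PLN (0.25), AID KO MLN (0.24), WT PLN replicate 1 (0.083) or WT MLN replicate 2 (0.077). None of 30 regulators of glucose use in T cells and none of 37 oxidative phosphorylation genes was called, with 5 and 0 at an unadjusted p under 0.05 in this limma fit, against 14.3% of all features. The largest differences among the regulators were Arrdc4, an arrestin-like gene that responds to glucose and lowers its uptake, at -1.13 (adjusted p = 0.069), and Irf4, a transcription factor of T cell activation, at -0.95 (adjusted p = 0.069). The oxidative phosphorylation genes had a median of 0.037, with Ndufa2 (0.17) and Cox4i1 (0.15) the largest with both pairs of 1 sign.

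In uMT against WT, which shares its WT arrays with the comparison above, no member was called, while 9 of all features (0.035%) were. At an unadjusted p under 0.05 there were 3 members, Ankrd37, Ndrg1 and Hk2, against 17.6% of all features. Of the 9 hypoxia response genes, 8 were higher in uMT in both pairs, against 28.9% of features higher in every pair. Their median difference was 0.20, and Vegfa was the exception. Groups did not overlap in 4 of 32 members, Ankrd37, Mxi1, Hk1 and Hk2, against 18.9% of features. The enzymes had a median of -0.021, with 4 of 14 higher in both pairs and 5 of 14 lower in both, against 29.8% of features lower in every pair.

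Ankrd37 was at -0.56 and -0.34 in WT PLN, -0.04 and -0.07 in WT MLN, and 0.01 and 0.39 in uMT PLN and MLN. Both uMT arrays lay above all WT arrays, by 0.46 ± 0.09 (adjusted p = 0.13). Ndrg1 was at 1.78 in uMT PLN and 1.31 in uMT MLN, 0.46 ± 0.12 above WT (adjusted p = 0.17), with the MLN array inside the WT range of 0.81 to 1.39. Ddit4 was at 4.50 and 5.08, inside the WT range, and 0.40 ± 0.25 higher in the fit (adjusted p = 0.44). P4ha1 was at -1.43 and -1.72 in WT PLN, -1.51 and -1.77 in WT MLN, and -1.67 and -0.93 in uMT PLN and MLN, so that its difference of 0.31 ± 0.13 (adjusted p = 0.29) came mainly from the MLN pair (0.58, against 0.045 in PLN). Without uMT MLN it was 0.038, and without uMT PLN 0.57. Mxi1, an antagonist of Myc, was 0.16 higher and its uMT arrays stood above all WT arrays. The mitochondrial genes Bnip3 and Higd1a were 0.11 and 0.060 higher, and Bhlhe40 0.20 (adjusted p = 0.41).

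Hk2 was at -2.51 in uMT PLN and -2.53 in uMT MLN, both below all 4 WT arrays, by -0.56 ± 0.11 (adjusted p = 0.13, 1.48-fold lower), or by -0.36 with normexp. It was thus lower than WT on all 4 knockout arrays of total cells, uMT and AID KO, while these comparisons share the WT arrays. Hk1, the constitutive hexokinase, differed by -0.20 with no overlap, and Pkm, which makes pyruvate, by -0.22 (adjusted p = 0.31). Other kept probes of the enzymes, besides the brightest, ran from -0.58 (Pkm) to 0.17 (Gpi1), with Eno1 at -0.52. Pdk1 was 0.24 higher (adjusted p = 0.30). Differences for the transporters ran from -0.13 (Slc2a3) to 0.089 (Slc16a3) and for oxygen sensing genes from -0.16 (Egln1) to -0.037 (Hif1a).

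Several other lists also stood apart on the uMT arrays. Summed NK cell markers were at 51.0 and 46.9 in PLN and MLN against 31.7 to 43.2 in WT (8 of 9 kept, median difference 0.52), the immediate early and stress genes at 768 and 749 against 607 to 704 (22 of 22 kept, median 0.12), genes of naive CD8 T cells at 637 and 589 against 451 to 569 (10 of 10 kept, median 0.18), and macrophage and monocyte markers at 3.01 and 2.33 against 3.07 to 3.93 (6 of 13 kept, median -0.25). None of these lists had a called gene. At an unadjusted p under 0.05 there were 4, 10, 2 and 3 genes, against 17.6% of all features. Of 12 erythroid genes, 5 had a kept probe, and 4 of these, the globin genes, were higher in uMT in both pairs (median of the 5 at 1.77, 0 called, 4 at an unadjusted p under 0.05), with a summed level of 2.70 and 10.4 in uMT against 1.59 to 5.92 in WT. The defining erythroid genes Alas2 and Slc4a1 did not pass the filter. The part of all 5 lists in the values of the members was not tested. Of the wider lists none had a called gene in this comparison. At an unadjusted p under 0.05 there were 6 of 39 sugar metabolism genes, 10 of 32 other hypoxia genes, 9 of 30 regulators and 4 of 37 oxidative phosphorylation genes. The share over all features was 17.6%. The chemokine receptor Cxcr4 was 1.11 higher (adjusted p = 0.090), with 2.20 on both uMT arrays and 0.71 to 1.39 on the WT arrays, and the lipoprotein receptor Vldlr differed by -0.94 (adjusted p = 0.097). Arrdc4 was 1.20 higher (adjusted p = 0.11) and Klf2, a factor of T cell quiescence, 0.52 (adjusted p = 0.23). Of sugar metabolism, the dim muscle gene Pgam2 was 0.74 higher (adjusted p = 0.28) and the transporter Slc2a8 differed by -0.57 (adjusted p = 0.33). Of oxidative phosphorylation, Ndufa2 was 0.35 (adjusted p = 0.20) and Tfam, which maintains mitochondrial DNA, 0.27 (adjusted p = 0.24) higher.

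Set directly against each other, uMT and AID KO total cells differed in Bhlhe40, which was higher in uMT by 1.75 ± 0.13 (3.36-fold, adjusted p = 0.015), at -2.40 and -1.83 against -3.98 and -3.75. That was the 1 member called of 32, against 0.307% of all features. With each array first set against WT on its own slide, the difference was 1.85 in PLN and 1.59 in MLN. The call was lost with matched pair blocks (adjusted p = 0.27), with no filter on dim probes (0.056) and without any single one of the 8 total arrays (0.051 to 0.23), while with normexp its size was 1.02.

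Of the other members, Ddit4 was lower in uMT by -0.77 ± 0.29 (adjusted p = 0.37), with no overlap, but by -0.43 with matched pair blocks, -0.38 without AID KO PLN and -1.17 without AID KO MLN. Ankrd37, at -0.34 and 0.09 in AID KO and 0.01 and 0.39 in uMT, was 0.32 ± 0.10 higher (adjusted p = 0.30), or 0.20 with matched pair blocks, and these arrays overlapped. Slc2a1 was at 2.83 and 3.16 in uMT against 2.83 and 2.60 in AID KO, 0.29 ± 0.12 higher (adjusted p = 0.42), and the WT arrays spanned 2.76 to 3.21. Without uMT MLN it was 0.16 and without AID KO PLN 0.17. Pkm was at 3.93 and 4.16 in uMT against 4.39 and 4.06 in AID KO, a difference of -0.18 ± 0.11 (adjusted p = 0.58), or -0.059 without uMT MLN, -0.10 without AID KO PLN and -0.31 without uMT PLN. Ndrg1 differed by -0.089 ± 0.14 and Hk2 by -0.17 ± 0.13 between the knockouts. Over the enzymes the median was -0.040, and their other kept probes ran from -0.54 (Eno1) to 0.15 (Gapdh). Groups did not overlap in 6 of 32 members, against 28.8% of features. The immediate early and stress list had 4 genes called higher in uMT here, with a median of 0.77, and 0 with matched pair blocks or without any single one of the 4 knockout arrays, and 1 or 2 without any other array. Summed B cell markers were at 5.66 and 6.74 in uMT PLN and MLN against 7.96 and 7.77 in AID KO (median -0.56, 0 called), CD4 T cell markers at 14.9 and 11.5 against 10.97 and 9.38 (median 0.35, 0 called), naive CD8 genes at 637 and 589 against 472 and 529, and effector and memory genes at 200.5 and 199 against 184 and 194. The part of these lists in the values of the members was not tested. The 5 erythroid genes had a median of 1.97 here, with 0 called.

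From the wider lists, Cited2, which competes with Hif1a for its coactivator, rose by 1.20 ± 0.13 in uMT over AID KO (adjusted p = 0.043), at 2.99 and 3.04 against 1.90 and 1.74. The Cited2 call was lost with matched pair blocks (adjusted p = 0.42), with no filter (0.15), with no slide term (0.078) and without any single array of the 12 (0.078 to 0.50). Cited2 also lost its call with total and naive cells fitted apart (adjusted p = 0.078). Arrdc4 rose by 2.34 ± 0.22 (5.05-fold, adjusted p = 0.033). Its level was -0.82 in uMT PLN and 0.41 in uMT MLN, -3.10 and -1.97 in AID KO, and -1.76 to -0.99 on the WT arrays, so that the knockouts lay on opposite sides of WT. Its call was lost with matched pair blocks (adjusted p = 0.39), with no filter (0.084) and without any single one of the 8 total arrays (0.066 to 0.44). Neither knockout passed against WT for Arrdc4 (adjusted p = 0.069 for AID KO and 0.11 for uMT). None of the 39 sugar metabolism genes and none of the 37 oxidative phosphorylation genes was called, with 3 and 1 at an unadjusted p under 0.05, against 12.2% of all features. The neuronal enolase Eno2 differed by -0.76 (adjusted p = 0.24), Slc2a8 by -0.65 (adjusted p = 0.47) and Uqcrfs1 by 0.31 (adjusted p = 0.34).

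The plot of differences sets all members and comparisons side by side.

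**Figure D3:**
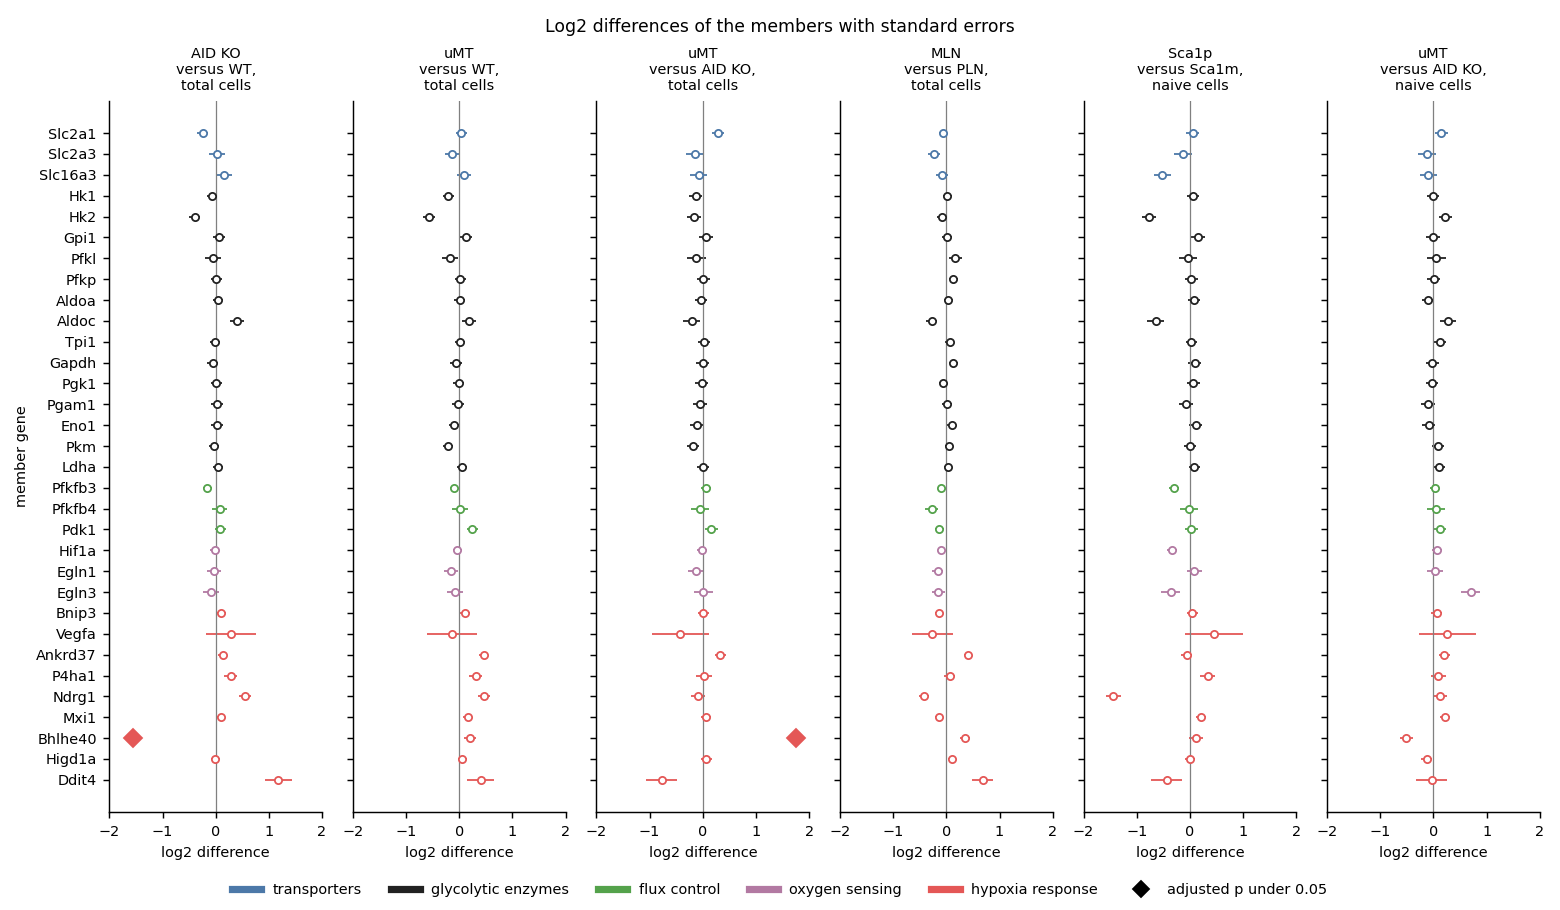
Log2 difference (points) with the standard error of the fit (bars) of each member, coloured by role, in 6 comparisons, the first-named group minus the second. Filled diamonds mark an adjusted p under 0.05, and they are Bhlhe40 alone, at -1.55 in AID KO against WT and 1.75 in uMT against AID KO, while most enzymes lie close to 0.

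Between the lymph node sites, MLN against PLN over the 8 total arrays, no member was called, against 0.109% of all features, and 5 members had an unadjusted p under 0.05, against 9.11%. Of the hypoxia response genes, 3 were higher in MLN in all 4 site pairs: Ankrd37 by 0.40 ± 0.07 (adjusted p = 0.19), Ddit4 by 0.68 ± 0.21 (adjusted p = 0.40) and Bhlhe40 by 0.35 ± 0.09 (adjusted p = 0.34), or 0.21 with normexp. Ndrg1 was lower in all 4 pairs, by -0.42 ± 0.10 (adjusted p = 0.28), and so was Mxi1, by -0.15. Features higher in every site pair made up 5.53% and lower ones 7.77%.

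The sign was thus the same in both WT pairs, each on 1 slide, and in the AID KO and uMT pairs, which run across slides. In Ankrd37 the 4 pairs were between 0.27 and 0.52, in Ddit4 between 0.28 and 1.27, in Bhlhe40 between 0.23 and 0.56, and in Ndrg1 between -0.47 and -0.35. Over all 8 arrays PLN and MLN overlapped in each of these 4 genes. Slc2a3, the high-affinity glucose carrier of lymphocytes, was at 2.28 and 1.90 in WT PLN, 2.24 and 1.68 in WT MLN, 2.25 and 1.85 in AID KO PLN and MLN, and 2.03 and 1.75 in uMT. Its difference was -0.23 ± 0.12 (adjusted p = 0.65), and its other kept probe gave 0.27. Without either uMT array it was -0.078, and with the mean of both probes 0.018.

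Among enzymes 11 of 14 were higher in MLN, with a median of 0.036 against -0.017 for all features, and Gapdh (0.13) and Pfkp (0.13) were so in all 4 pairs. Aldoc, at -0.28 (adjusted p = 0.54), was the lowest, and Pfkl, the liver-type phosphofructokinase, the highest at 0.17 with pairs from -0.54 to 0.54. Other kept probes of the enzymes, besides the brightest, ran from -0.26 (Aldoc) to 0.15 (Gapdh), with Pkm at -0.14. All 3 transporters, all 3 flux control genes and all 3 oxygen sensing genes had negative estimates, from -0.28 (Pfkfb4) to -0.063 (Slc2a1), and none passed. The 5 kept erythroid genes also differed by site, with a median of 3.18, 1 called higher in MLN, and a summed level of 3.20 to 10.4 in MLN against 1.59 to 2.70 in PLN, and the part of that in these values was not tested. No gene of the wider lists was called, and 9.11% of all features had an unadjusted p under 0.05. In these lists it was 0 of 39 sugar metabolism, 5 of 32 hypoxia, 4 of 30 regulator and 1 of 37 oxidative phosphorylation genes. The largest with 1 sign in all pairs were Arrdc4 at 0.94 (adjusted p = 0.16), the amino acid transporter Slc7a5 at 0.50 (0.19), Cycs, cytochrome c, at 0.38 (0.23), Ndufa2 at 0.14 (0.71), Stc2 at -0.72 (0.40), Nfil3 at -0.44 (0.41), Pfkfb2 at -0.20 (0.60) and Tigar at -0.047 (0.93).

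Whether the knockout differences varied between PLN and MLN arrays was tested with interaction terms. No member passed, against 0% of features for AID KO and 0.00777% for uMT. Each knockout has 1 array for each site, and its PLN and MLN arrays lie on different slides. Site and slide therefore cannot be told apart in these terms. For AID KO no member had an unadjusted p under 0.05, against 2.47% of all features, and the largest estimates were Ddit4 at -0.79 and Vegfa at 0.70. For uMT there were 4, against 9.05% of features: Slc2a3 at -0.62, Pfkfb4 at -0.64, P4ha1 at 0.54 and Vegfa at 2.26, each with an adjusted p of 0.53 or 0.54. Vegfa, the angiogenic growth factor, rests on dim spots: it was at -5.75 to -3.26 on the WT arrays, -4.63 and -3.44 in AID KO, and -4.35 and -4.57 in uMT. Its other kept probe gave differences of another sign in 5 of 6 comparisons, so that no direction is drawn for it.

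In naive cells the largest difference of any member belonged to Ndrg1. It was at 1.73 in AID KO Sca1m and 2.05 in uMT Sca1m, against 0.49 and 0.41 in Sca1p. The estimate was -1.44 ± 0.14, or 2.71-fold lower in Sca1p, with pairs of -1.24 in AID KO and -1.64 in uMT. Its unadjusted p was 4.3e-05 and its adjusted p 0.085, so it was not called, and 4 of all features were (0.0155%). It passed with normexp (adjusted p = 0.027), with the authors' value table (0.037) and over features above background on all 12 arrays (0.024). In a fit on the naive arrays alone, which leaves a single residual degree of freedom, it had an adjusted p of 1.00.

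At an unadjusted p under 0.05 there were 6 members, all lower in Sca1p, against 3.64% of features lower and 4.6% higher (8.24% in all). Hk2 was at -3.60 and -3.55 in Sca1p against -3.01 and -2.61 in Sca1m, -0.77 ± 0.13 (adjusted p = 0.19). Aldoc was at -1.71 and -1.55 against -1.17 and -0.79, -0.65 ± 0.15 (adjusted p = 0.34). Slc16a3, the lactate exporter, was at -2.96 and -3.25 against -2.63 and -2.54, -0.52 ± 0.16 (adjusted p = 0.48). In none of these did the fractions overlap, as in 11 of 32 members, against 34.5% of features. With normexp the sizes were -0.33 for Hk2 and -0.22 for Slc16a3, and without either uMT array Slc16a3 was at -0.33. Hif1a itself was at 2.74 and 2.81 against 3.08 and 3.14, a difference of -0.33 in each genotype (adjusted p = 0.42). Pfkfb3 was at 1.57 and 1.56 against 1.85 and 1.89, -0.30 (adjusted p = 0.46), and its other kept probe gave 0.46. P4ha1 and Mxi1 were higher in Sca1p in both genotypes, by 0.33 and 0.21, and did not pass. Vegfa was at -1.39 and -0.71 against -1.42 and -1.58, 0.45 ± 0.54 (adjusted p = 0.90), and -0.61 with the mean of its probes, 0.87 without either AID KO array and 0.028 without either uMT array.

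The medians of the enzymes for Sca1p against Sca1m had opposite signs in the 2 genotypes. In AID KO 12 of 14 enzymes were higher in Sca1p, with a median of 0.18, while in uMT 13 of 14 were lower, with a median of -0.079. Hk2 and Aldoc were lower and Hk1 was higher in both. These values are of the brightest probe of each gene. In AID KO another kept probe was lower in Sca1p for Eno1 (1.29 against 1.42), Pkm (1.09 against 1.24) and Ldha (0.920 against 0.935). In uMT another Gapdh probe was higher in Sca1p (4.485 against 4.375). The remaining kept probes of the enzymes had the sign of the brightest. The medians over all features were 0.024 and -0.016. Summed levels of the 37 oxidative phosphorylation genes differed likewise, at 1249 in Sca1p against 1143 in Sca1m in AID KO and 1148 against 1229 in uMT, as did the summed enzyme levels, 586 against 500.0 and 529 against 548. The same order was seen for the 12 CD8 T cell identity genes, at 1517 against 1353 in AID KO and 1348 against 1407 in uMT, and for the 8 B cell markers, at 8.18 against 6.08 and 5.07 against 5.56. The AID KO Sca1p array also had the most outlier spots, 342 against 176 to 223 on the other naive arrays, and the part of these in the enzyme values was not tested. No member passed the test of a different Sca-1 effect by genotype (0.102% of all features did), and 0 of 32 had an unadjusted p under 0.05 (11.4% of all features). The difference between the medians was not tested. Each fraction of a genotype is 1 array, so that array and fraction cannot be told apart within a genotype.

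**Figure D4:**
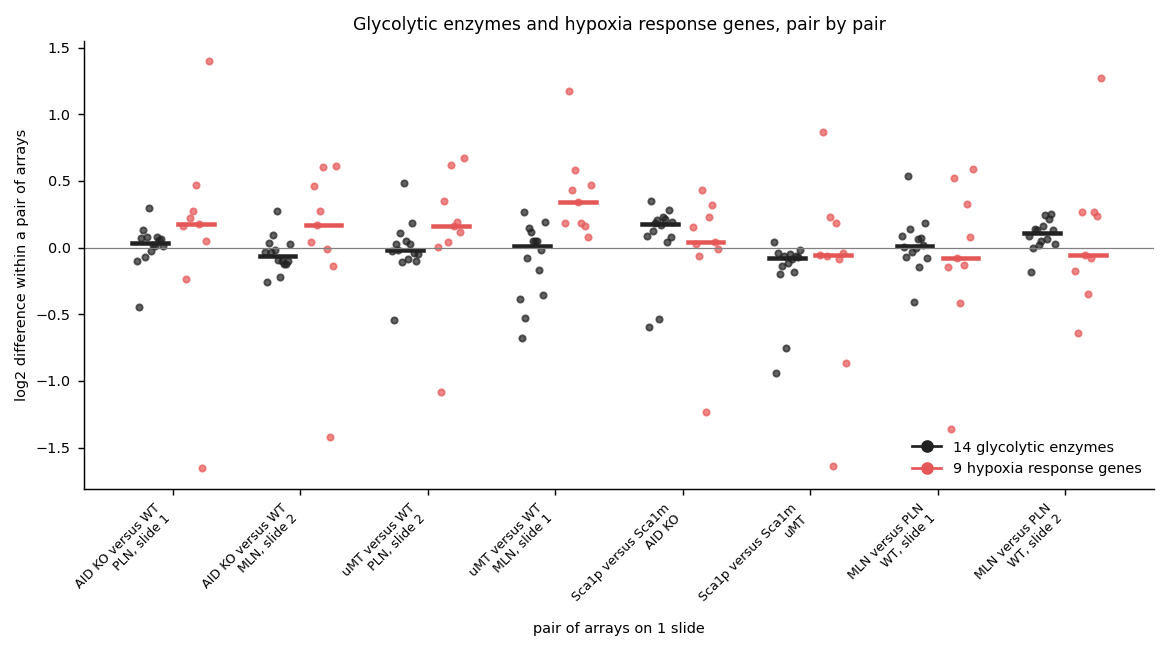
Log2 differences of the 14 glycolytic enzymes (black) and 9 hypoxia response genes (red) in 8 pairs of arrays, each pair on 1 slide, with 1 point a gene and bars at the medians. The enzyme medians lie between -0.079 and 0.18, positive in AID KO and negative in uMT for Sca1p against Sca1m, and the hypoxia response median is highest at 0.34 for uMT against WT in MLN.

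Genes of effector and memory cells were also set side by side in Sca1p and Sca1m. Of 17 such genes kept, 1 was called higher in Sca1p, and the median was 0.30. Their summed level was 140 in Sca1p against 126.3 in Sca1m in AID KO, and 123 against 125.7 in uMT. The sums thus overlapped and ran in opposite directions in the genotypes. The part of this in the values above was not tested. The 10 genes of naive CD8 T cells on a list had a median of 0.0016. Among other hypoxia genes none of 32 was called, with 3 at an unadjusted p under 0.05, against 8.24% of all features. Anxa2, a phospholipid-binding annexin, was at 0.21 and 0.20 in Sca1p and 0.98 and 1.33 in Sca1m, -0.95 ± 0.14 (adjusted p = 0.15), and the dim Hif3a differed by -0.89 (adjusted p = 0.49). None of the 39 sugar metabolism genes was called, with 3 at an unadjusted p under 0.05, among them Gpd2, the mitochondrial partner of Gpd1, at -0.46 (adjusted p = 0.59), while the dim transporter Slc2a6 differed by -0.55 (adjusted p = 0.80). Arrdc4 was 0.99 higher in Sca1p (adjusted p = 0.31) and Irf4 differed by -0.23 (adjusted p = 0.82). None of the 37 oxidative phosphorylation genes had an unadjusted p under 0.05, with Ndufa8 at 0.28 (adjusted p = 0.67).

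Between naive uMT and AID KO cells no member was called, against 0.354% of all features, and 2 had an unadjusted p under 0.05, against 8.82%. Egln3, the oxygen-sensing hydroxylase that Hif1a itself induces, was at -2.57 and -1.96 in uMT Sca1p and Sca1m against -3.02 and -2.91 in AID KO, 0.70 ± 0.18 higher (adjusted p = 0.27), or 0.32 with normexp and 0.45 without either Sca1m array. Bhlhe40 was at -3.18 and -3.10 in uMT and -2.47 and -2.79 in AID KO, -0.51 ± 0.13 (adjusted p = 0.28), or -0.31 with normexp and without either Sca1p array. In total cells its difference between the same genotypes was 1.75, of the opposite sign, and the difference between both values was not tested since naive cells lie on another slide.

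Mxi1 was at 0.97 and 0.78 in uMT against 0.77 and 0.54 in AID KO, 0.22 ± 0.10 (adjusted p = 0.60), with no overlap, as in 9 of 32 members against 30.5% of features. Aldoc and Hk2 were higher in uMT in both fractions, by 0.27 (adjusted p = 0.75) and 0.22 (adjusted p = 0.76), and the groups overlapped for each. Aldoc was 0.17 higher without either Sca1m array. For Hk2 normexp gave -0.0054, and leaving out a Sca1p array 0.40 and a Sca1m array 0.051. Of the 14 enzymes 3 were higher in uMT in Sca1p and 13 in Sca1m, which restates the opposite Sca-1 medians above. Ndrg1 differed by 0.12 and Ddit4 by -0.035 between the genotypes. In the wider lists 0 of 39 sugar metabolism, 0 of 32 hypoxia, 0 of 30 regulator and 0 of 37 oxidative phosphorylation genes were called with limma. At an unadjusted p under 0.05 there were 3, 0, 4 and 0, against 8.82% of all features. Arrdc4 was 0.97 higher in uMT (adjusted p = 0.23) and Klf2 differed by -0.69 (adjusted p = 0.36). Among the other lists, Pgam2 differed by -0.95 (adjusted p = 0.49), Slc2a6 by -0.88 (0.64), Stc2 by -0.67 (0.64), Hmox1 by -0.50 (0.85), Cyc1 by -0.12 (0.92) and Uqcrc2 by 0.11 (0.94). Several lists stood apart between the genotypes: summed B cell markers were at 5.07 and 5.56 in uMT against 8.18 and 6.08 in AID KO (median -0.44, 0 called), NK cell markers at 34.0 and 33.0 against 50.4 and 38.2 (median -0.24, 1 called lower), naive CD8 genes at 576 and 575 against 698 and 648, and immediate early genes at 909 and 976 against 1047 and 1003. Their part in these values was not tested.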

How the data were processed

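Cy3-labelled RNA of 12 samples was hybridized to 12 arrays on 3 slides. The deposited scanner files hold spot intensity from Agilent Feature Extraction 11.0.1.1, per the file headers and the submitters' processing notes, subtracted for background and not normalized between arrays. They also hold, per the file headers, the median signal of each spot and of its background, and flags of 0 or 1 for spots. The authors' deposited value table holds log2 values. Its columns followed the scanner values at a Pearson correlation of 1.00, with the column medians 9.47, 8.59 and 8.99 shared within a slide, and it served as an alternative. Its direction and scale are those of log2 intensity, and its centring differs by slide.

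Here log2 processed intensity was shifted by each array's 75th percentile. Outlier spots (61 to 342 an array) were left out, and no spot was saturated. Probes well above background on at least 2 of 12 arrays were kept. Names came from transcript accessions matched to a RefSeq table (GRCm38.p6), which gave 1 symbol to 32994 of 56605 probes, several to 0 and none to 23611. For a gene with several kept probes the brightest was used. A single limma fit (version 3.58.1, R 4.3.3) had terms for site, slide and genotype in total cells and for genotype and Sca-1 in naive cells (4 residual degrees of freedom, 3 with an interaction), and its two-sided p-values were adjusted by Benjamini-Hochberg across the features. The fit was tested on simulated data. The number of arrays limits the precision. Values after ± are standard errors.

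Alternatives were normexp background correction (offset 50, on the median spot signal, since the mean signal named in the plan was not used here), median and quantile scaling, the authors' table, both filters on dim probes, the mean of a gene's probes, outliers kept, no slide term, matched pair blocks, separate fits, and each array left out. Every member may be named. Values on every array are given for members that passed and, in each comparison, for the 5 largest differences whose pairs had 1 sign. Of each wider list the called genes are named, up to 4, or otherwise the 2 largest whose pairs had 1 sign. The members, lists and rule were chosen with earlier results of these data known. Some genes that these rules would name, and the check of a targeted gene, are not reported here.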

Additional observations from a re-analysis of the deposited data

Results flagged for a closer look

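The median difference of the 14 glycolytic enzymes between Sca1p and Sca1m naive cells was 0.18 in AID KO and -0.079 in uMT, a gap of 0.26 on the log2 scale between genotypes. With 1 array for each fraction and genotype it was singled out because the arrays moved in opposite directions, and the difference was not tested. Both medians are of brightest probes, and other kept probes of Eno1, Pkm, Ldha and Gapdh did not all share the sign. The summed levels of oxidative phosphorylation genes, CD8 T cell identity genes and B cell markers ran the same way in the same 4 arrays.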

How the results depend on the processing

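Over 11 alternatives other than leaving out an array, 293 of 304 values of the members kept their direction and side of the threshold, 3 lost the threshold, 5 passed it and 3 reversed, with the cause not tested. The reversed values were Slc2a3 in MLN against PLN (0.018) and Vegfa in Sca1p against Sca1m (-0.61) with the mean of a gene's probes, where other probes enter, and Hk2 in naive uMT against AID KO with normexp (-0.0054). Of 360 values with an array left out, 348 kept direction and side and 0 reversed. Direction was little at risk, since these members were chosen with pairs of 1 sign and many left-out arrays lie outside the comparison. All values that changed side were of Bhlhe40. Its call held in 8 of 12 left-out fits for AID KO against WT and in 4 of 12 for uMT against AID KO. Members called in AID KO against WT (1) were 2 with normexp, 2 over features above background on 12 arrays, 0 with matched pair blocks and 0 to 1 with an array left out. In uMT against AID KO total cells (1) they were 0 with no filter, 0 with matched pair blocks and 0 to 1 with an array left out. In Sca1p against Sca1m (0) normexp, the authors' table and the 12-array filter gave 1 each, Ndrg1. Ddit4 in AID KO had an adjusted p from 0.027 to 0.40.

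Features called moved more. AID KO against WT (226) gave 363 with normexp, 424 with the authors' table, 50 with no filter, 583 with the 12-array filter, 86 with no slide term, 15 with matched pair blocks and 1 to 165 with an array left out. In uMT against WT (9) the counts were 53, 26, 0, 93 and 2 for the first 5 of these, 18 with quantile scaling and 0 to 9 left out. In uMT against AID KO total cells (79) normexp gave 166, no filter 18, the 12-array filter 189, no slide term 29, matched pair blocks 1, a separate fit 38, and left-out arrays 1 to 38. MLN against PLN (28) gave 60 with normexp, 44 with the authors' table, 16 with no filter, 71 with the 12-array filter and 2 to 24 left out. Sca1p against Sca1m (4) gave 11, 8, 0 and 19 for those settings, 0 in a separate fit and 0 to 175 left out. Naive uMT against AID KO (91) gave 29 with normexp, 10 with the authors' table, 25 with the 12-array filter, 0 in a separate fit and 25 to 205 left out.

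Groups of 1 array carry no replicate numbers shared by the labels, and matched pair blocks pair arrays by site and slide. With an array left out, a lone array is assumed to vary like the others. Dim members, Vegfa above all, are limited by signal over background.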
